A study of Mus musculus with 12 samples.

Results

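The comparison set 3 libraries labelled Cas9 against 1 library labelled Ctrl, all from the mouse breast cancer line 4T1, a transplantable mammary carcinoma line of the BALB/c mouse. These are 4 of the 10 libraries with values in a series whose titles name 12 samples. Every Ctrl library with values was used, which is Ctrl 3, and the Ctrl 1 and Ctrl 2 samples were not analysed here. Of 17558 gene symbols listed for these libraries, 11407 had a mean of 1 FPKM or more over the 4 libraries and entered the comparison. FPKM counts sequenced fragments relative to transcript length and library total, so that levels of different genes can be set beside each other. At the edge of this minimum, Hs6st2 entered with a mean of 1.00066 FPKM and Prg4 stayed out with 0.99941 FPKM.

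The labels give the groups as the genotypes Ctrl and Cas9, with the treatment culture for both. They describe growth of 4T1 in DMEM with 10% fetal bovine serum, RNA from flash-frozen cells by Trizol and NEBNext Ultra libraries. Cas9 is the nuclease of CRISPR genome editing. The labels name neither a guide RNA nor a target gene, so the level of an edited gene, the usual check of such labels, could not be read. They also do not say whether libraries of a group came from separate cultures, clones or animals. It is thus not known whether the spread between them, on which p-values rest, is a spread between independent samples.

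The libraries held RNA that a pure culture of mammary carcinoma cells would lack. Ptprc, the pan-leukocyte antigen CD45, stood at 21.1 FPKM in Ctrl 3 and at 18.5, 21 and 15.9 FPKM in Cas9 1, Cas9 2 and Cas9 3. In the 6 WT and GSH libraries of the same line, which were tabulated separately, Ptprc lay between 0.0174 and 0.0407 FPKM. C1qa, a complement subunit of tissue macrophages, stood at 703, 730, 642 and 327 FPKM in the same order, against 0.986 to 2.08 FPKM in those 6 libraries. Transcripts of T cells (Cd3e), neutrophils (S100a8), endothelium (Pecam1) and fibroblasts (Col1a1) were present too, beside the epithelial keratin Krt8 at 589 to 885 FPKM. The data thus bear out a mixture of carcinoma cells with leukocytes and stroma, whereas the labels speak of breast cancer cells in culture. In such bulk RNA, fewer cells of a type and less RNA per cell cannot be told apart.

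Interferons are secreted proteins that act through receptors and JAK kinases on transcription factors. A complex that holds STAT2 and IRF9 binds the interferon-stimulated response element (ISRE), and the gamma-activated site (GAS) is bound above all after interferon-gamma. The induced genes include antiviral enzymes, GTPases that attack vacuoles of intracellular pathogens, and the machinery that shows peptides to T cells on MHC class I. In tumours, interferon-gamma comes mainly from T cells and NK cells, and carcinoma cells, macrophages and stroma can all respond to it.

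Of the 30 pathway lists examined, 2 lists of interferon genes had the highest median difference of the Cas9 libraries from Ctrl 3. Without Cas9 2 the extracellular matrix list, at -0.88, and without Cas9 3 the cholesterol synthesis list, at -0.57, lay below Ctrl 3 by more than an interferon list lay above it (0.54 and 0.56 without Cas9 2, and 0.59 and 0.5 without Cas9 3). The promoter windows of 4 of their genes are shown because they carry the elements just named. Each is the 250 bases before the RefSeq transcription start on GRCm38.p6, written 5′ to 3′ on the strand of the gene. Capitals mark the ISRE core (GAAA, any 2 bases, GAAA) and the GAS (TTCNNNGAA), each searched on both strands. The windows lie at chr11:58199306-58199555 (+) for Igtp, chr11:58214727-58214976 (+) for Irgm2, chr11:48992247-48992496 (-) for Tgtp1 and chr19:34640639-34640888 (+) for Ifit1.
Igtp: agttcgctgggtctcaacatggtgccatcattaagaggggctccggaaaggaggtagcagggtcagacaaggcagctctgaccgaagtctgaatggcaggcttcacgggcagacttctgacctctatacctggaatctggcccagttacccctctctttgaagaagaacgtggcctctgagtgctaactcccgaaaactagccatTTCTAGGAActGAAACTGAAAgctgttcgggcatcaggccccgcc
Irgm2: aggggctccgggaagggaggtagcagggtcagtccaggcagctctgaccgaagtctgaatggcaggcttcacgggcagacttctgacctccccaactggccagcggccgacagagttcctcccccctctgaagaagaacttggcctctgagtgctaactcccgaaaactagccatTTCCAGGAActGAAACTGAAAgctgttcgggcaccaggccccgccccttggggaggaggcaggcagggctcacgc
Tgtp1: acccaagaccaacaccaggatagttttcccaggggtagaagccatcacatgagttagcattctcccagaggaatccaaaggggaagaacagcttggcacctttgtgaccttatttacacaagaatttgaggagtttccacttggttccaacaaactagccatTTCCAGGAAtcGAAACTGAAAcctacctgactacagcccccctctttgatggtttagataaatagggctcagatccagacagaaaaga
Ifit1: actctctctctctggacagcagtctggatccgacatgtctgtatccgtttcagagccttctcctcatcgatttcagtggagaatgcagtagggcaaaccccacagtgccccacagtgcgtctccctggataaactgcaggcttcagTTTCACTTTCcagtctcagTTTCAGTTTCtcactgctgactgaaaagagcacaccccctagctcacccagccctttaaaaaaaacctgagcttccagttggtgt
In the windows of Igtp, Irgm2 and Tgtp1, which encode immunity-related GTPases, a GAS was followed after 2 bases by an ISRE core. That core began 34 bases before the start in Igtp, 64 in Irgm2 and 77 in Tgtp1. Ifit1, an antiviral RNA-binding protein, had 2 ISRE cores, at 104 and 85 bases before the start, and no GAS match. The ISRE core was found in 2.98% of all 32851 windows of this length, in 2.79% of windows of tested genes and in 44.4% of the 45 windows matched to interferon list genes. The GAS was found in 7.02%, 5.97% and 24.4% of the same windows. Such matches describe letters in a window and do not show binding.

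No gene passed the test. A limma fit on log2(FPKM + 1) with Benjamini-Hochberg adjustment called 0 of the 11407 genes at an adjusted p of 0.05 (0% in either direction), and voom on recovered reads called 0 as well. At an unadjusted p of 0.05, limma listed 210 genes (1.84%), of which 143 (1.25%) were higher and 67 (0.587%) lower in Cas9, and voom listed 188. With 1 Ctrl library, the error of the fit came from the Cas9 libraries alone (2 residual degrees of freedom), and Ctrl 3 is assumed to vary as they do. The adjusted limma p was 1 for every gene, so the differences below are measured values with their standard errors (SE) and not calls.

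Ctrl 3 and Cas9 2 were the closest pair, with 372 of the tested genes (3.26%) at least 1.5-fold apart on the log2(FPKM + 1) scale. Cas9 1 and Cas9 3 were the farthest, with 1620 genes (14.2%). Library depth was alike, at 31555573 to 37334599 recovered reads. Cas9 3 stood apart through keratinocyte genes. Krtdap, Krt6a and Krt6b, proteins of stratified epithelium, were at 59.8, 30.7 and 42.6 FPKM in Cas9 3 and listed at 0 in the other 3 libraries. The 16 genes of the keratinocyte list summed to 249 FPKM there and to 4.39 to 6.10 FPKM elsewhere.

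Cas9 1 had the highest endothelial sum. The endothelial markers summed to 375 FPKM in Cas9 1 and to 206 to 269 FPKM in the others. Postn, a matrix protein of activated fibroblasts, was at 55.4 FPKM in Cas9 1 against 213, 207 and 125 FPKM in Ctrl 3, Cas9 2 and Cas9 3. The macrophage and monocyte markers summed to 10196 FPKM in Ctrl 3 and to 10341, 8927 and 4930 FPKM in Cas9 1, Cas9 2 and Cas9 3. Of 21 macrophage markers tested, 10 were lower and 2 higher in all 3 Cas9 libraries, where 22.5% of all genes were lower and 20.1% higher. Fibroblast and pericyte markers summed to 1529 FPKM in Ctrl 3 and to 752, 2093 and 768 FPKM in the Cas9 libraries, on both sides of the Ctrl value.

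**Figure D1:**
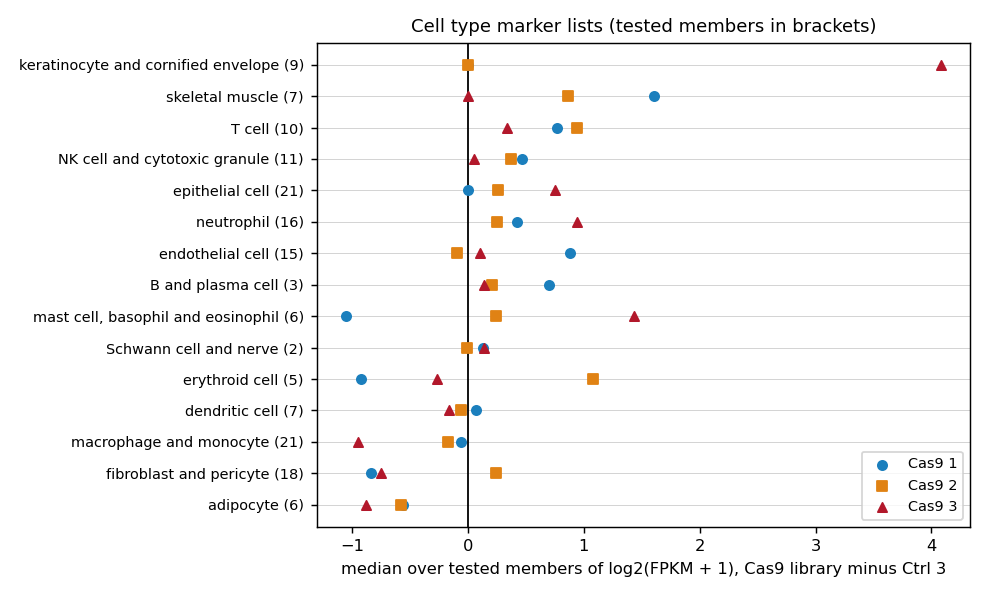
Median log2(FPKM + 1) difference of each Cas9 library from Ctrl 3 over the tested members of 15 cell type marker lists, with the number tested in brackets and 0 as the Ctrl 3 level. Points of 1 list spread widely: the keratinocyte list is at 4.08 in Cas9 3 and at 0 in the other Cas9 libraries, and the fibroblast list lies on both sides of 0.

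Before pathways, genes were ranked by the smallest of their 3 differences from Ctrl 3. All 3 Cas9 libraries were at least 1.5-fold above Ctrl 3 for 55 genes (0.482% of those tested) and at least 1.5-fold below it for 17 (0.149%). The 12 with the widest gap in each direction, among named genes averaging 5 FPKM or more, are described first. That average covers Ctrl 3 and the Cas9 libraries together, so a gene can pass through the side where it is high. Among the higher genes, Tmprss4, Ly6c2, Stfa2, Nos2, Foxq1, Hdc, Ubd, Cxcl2 and Adm were below 5 FPKM in Ctrl 3. They passed through the Cas9 libraries in this way. Among the lower genes, Cfd passed through Ctrl 3, with every Cas9 value below 5 FPKM. Most Cas9 values of Car3 and Padi1 were below 5 FPKM too.

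Among the 12 higher genes were proteases and transcription factors known from epithelium. Tmprss4, a membrane serine protease of carcinomas, was at 0.817 FPKM in Ctrl 3 and at 4.33, 5.40 and 9.84 FPKM in the Cas9 libraries (log2 difference 1.98, SE 0.43). Tmprss6, a related protease that restrains hepcidin, was at 11.8 FPKM against 22.5, 34.4 and 26.3 FPKM. Elf3, an epithelial ETS transcription factor, was at 7.33 FPKM against 14.1, 16.1 and 13.7 FPKM, a tight group of Cas9 values (log2 difference 0.90, SE 0.16). Foxq1, a forkhead factor, was at 2.52 FPKM against 9.19, 7.38 and 5.52 FPKM. Not every epithelial gene shared this pattern: Krt8 was at 808 FPKM in Ctrl 3 and at 589, 747 and 885 FPKM in Cas9. Epcam was at 189 FPKM against 181, 226 and 318 FPKM. Of 21 epithelial genes tested, 1 was at least 1.5-fold higher in all 3 Cas9 libraries, beside 0.482% of all genes. By any amount, 7 were higher and 1 lower in all 3, beside 20.1% and 22.5% of all genes. The list median was 0.38, beside -0.011 for all genes, and it differed by library: 0 in Cas9 1, 0.26 in Cas9 2 and 0.75 in Cas9 3.

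Others of the 12 are known from myeloid cells and inflammation, or, for Adm, from the hypoxia-induced list. Ly6c2, the Ly6C antigen of inflammatory monocytes, was at 1.11 FPKM in Ctrl 3 and at 4.56, 8.07 and 14.7 FPKM in Cas9 (log2 difference 2.14, SE 0.58). Most of its macrophage and monocyte list did not share this: of 21 tested, 2 were higher and 10 lower in all 3 Cas9 libraries. Ccr2 was at 37.5 FPKM against 10.2, 33.4 and 6.84 FPKM. Fcgr1 was at 41.6 FPKM against 33.1, 37.2 and 16.1 FPKM. Nos2, the inducible nitric oxide synthase, was at 3.19 FPKM against 7.89, 7.83 and 21.4 FPKM. Stfa2, a stefin protease inhibitor, was at 2.11 FPKM against 5.69, 6.28 and 14.3 FPKM. For Ly6c2, Nos2 and Stfa2, Cas9 3 was the highest library. The same order held for Hdc, which makes histamine, at 1.65 FPKM against 3.89, 3.94 and 15.9 FPKM. Cxcl2, a chemokine that attracts neutrophils, was at 1.79 FPKM against 6.30, 3.98 and 20.5 FPKM, and Adm, the vasodilator adrenomedullin, at 4.21 FPKM against 8.17, 14.7 and 31.0 FPKM. The 20 neutrophil markers summed to 606 FPKM in Ctrl 3 and to 860, 737 and 1283 FPKM in the Cas9 libraries. Without Lcn2, a siderophore-binding protein that is in the epithelial list as well, they summed to 412 FPKM against 360, 414 and 1029 FPKM, above Ctrl 3 by a wide margin in Cas9 3 only. Of the 16 neutrophil markers tested, 8 were higher and 1 lower in all 3 Cas9 libraries. The shares over all genes tested were 20.1% and 22.5%. With the untested members, 9 of the 20 were higher and 3 lower. S100a8, a calcium-binding alarmin of neutrophils, was at 46.3 FPKM against 76.9, 63.0 and 239 FPKM. The part of neutrophils in the differences above was not tested.

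The remaining 2 of the 12 are interferon-responsive. Ubd, the ubiquitin-like modifier FAT10, was at 4.68 FPKM in Ctrl 3 and at 19.6, 9.21 and 17.2 FPKM in Cas9. Igtp is described with the GTPases.

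Among the 12 lower genes, some are known from fat tissue. Cfd, the adipocyte protease adipsin, was at 21.3 FPKM in Ctrl 3 (771 reads) and at 0.0607, 2.81 and 3.41 FPKM in Cas9 (2, 86 and 109 reads), with a log2 difference of -3.10 (SE 0.86). Car3, a carbonic anhydrase abundant in fat and muscle, was at 14.5 FPKM against 2.86, 5.34 and 3.81 FPKM. Hp, the haemoglobin scavenger haptoglobin, was at 33.6 FPKM against 6.57, 13.4 and 15.2 FPKM. Some other adipocyte genes were lower too. Adipoq was at 2.98 FPKM against 0.613, 1.49 and 0.867 FPKM, and Cidec, a lipid droplet protein, at 4.16 FPKM against 1.5, 1.96 and 1.56 FPKM. Of the 6 adipocyte genes tested, 3 were lower and 0 higher in all 3 Cas9 libraries. The shares over all genes tested were 22.5% and 20.1%. With the untested members, 7 of the 14 listed were lower and 1 was higher. Only 6 of the 14 passed the minimum, and Adipoq, with a Cas9 mean of 0.991 FPKM, passed through Ctrl 3. Fabp4, the most abundant member of the list, was at 46.4 FPKM against 53.7, 33.0 and 27.3 FPKM. Lipe was at 6.28 FPKM against 7.04, 7.29 and 5.85 FPKM. Lpl, a lipase that other cells make as well, was at 3.52 FPKM against 3.32, 3.58 and 2.82 FPKM. For Fabp4, Lipe and Lpl, Ctrl 3 lay within the Cas9 range.

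Of the granzymes, 2 were among the 12. Gzme, a serine protease of cytotoxic lymphocyte granules, was at 36.0 FPKM in Ctrl 3 and at 19.4, 16.7 and 17.5 FPKM in Cas9 (log2 difference -0.97, SE 0.15). Gzmc was at 28.6 FPKM against 15.7, 10.7 and 14.2 FPKM. Their neighbours in the same gene cluster were spread more widely. Gzmd was at 52.4 FPKM against 48.3, 12.2 and 24.8 FPKM, Gzmf at 50.8 FPKM against 66.2, 6.67 and 30.6 FPKM, and Gzmg at 51.7 FPKM against 49.7, 3.65 and 15.4 FPKM. The Gzmc to Gzmg genes are closely similar in sequence, so reads may be split between them in a way the files do not show.

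The other lower genes have varied roles. Fcrls, a scavenger receptor of macrophages, was at 28.5 FPKM against 6.99, 5.33 and 10.4 FPKM (log2 difference -1.82, SE 0.35). Padi1, which converts arginine to citrulline in proteins, was at 10.3 FPKM against 4.51, 5.08 and 4.81 FPKM. Insig1, which holds the sterol sensor complex in the endoplasmic reticulum, was at 28.5 FPKM against 10.1, 17.3 and 16.4 FPKM. Gpr39, a zinc-sensing receptor, was at 18.1 FPKM against 9.41, 11.3 and 11.2 FPKM, and Cnnm4, a magnesium transporter, at 27.5 FPKM against 15.4, 18.9 and 14.6 FPKM. Nxpe5 was at 13.2 FPKM against 8.92, 4.91 and 6.49 FPKM, and Nav1, a neuron navigator protein, at 21.3 FPKM against 13.6, 15.0 and 11.1 FPKM. Ctrl 3 was above every Cas9 value for all 12, as the ranking requires.

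**Figure D2:**
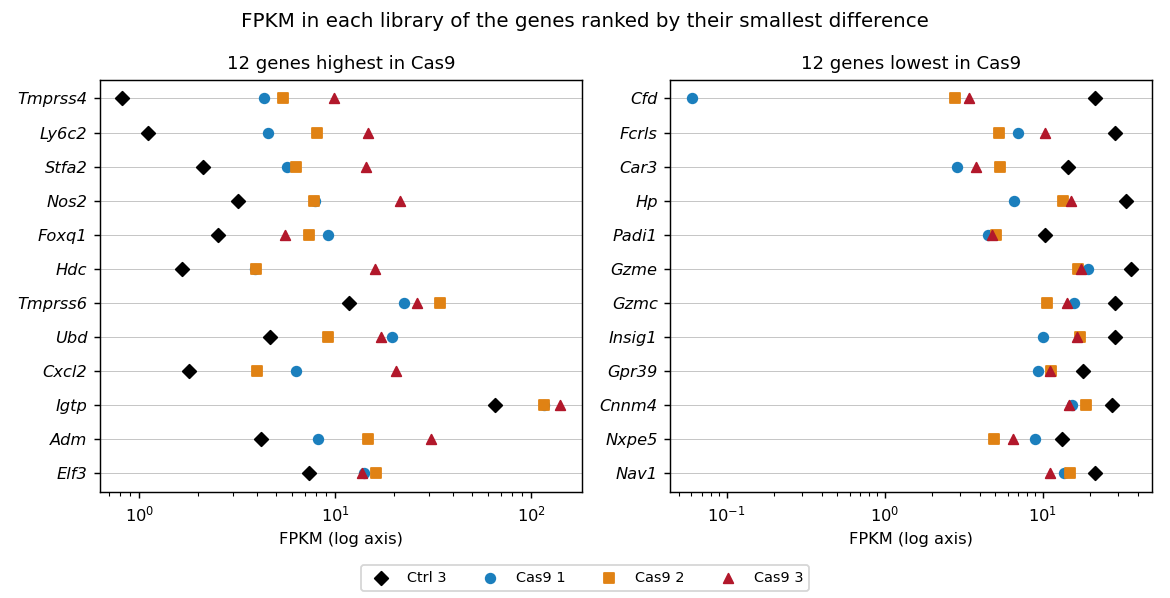
FPKM on a log axis of the 12 genes highest and the 12 genes lowest in the Cas9 libraries, with 1 symbol per library. The Ctrl 3 diamond lies outside the Cas9 values in every row, which the ranking requires, and Cas9 3 is often the farthest on the left panel, as for Ly6c2 (14.7 FPKM) and Nos2 (21.4 FPKM).

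The interferon genes were higher in Cas9 by a similar amount in each library. Of 51 genes tested from the interferon-stimulated list and the list of interferon-gamma response genes and GTPases, 0 passed the adjusted limma threshold, 43 (84.3%) were higher in all 3 Cas9 libraries and 0 were lower in all 3. Over all genes tested, 20.1% were higher in all 3 and 22.5% lower. At least 1.5-fold higher in all 3 were 11 of the 51 (21.6%), against 0.482% of all genes. Their median log2 difference was 0.56, beside -0.011 for all genes. The median of the interferon-stimulated list was 0.56, 0.60 and 0.55 in Cas9 1, Cas9 2 and Cas9 3, and that of the interferon-gamma list 0.51, 0.55 and 0.55. Without Cas9 1, Cas9 2 or Cas9 3 in turn, 43, 44 and 47 of the 51 were above Ctrl 3 in both of the other Cas9 libraries, where 28.8% to 29.2% of all genes were.

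Transcripts of the ligand genes examined, Ifng and Ifnb1, were scarce. Ifng, encoding interferon-gamma, was at 0.443 FPKM in Ctrl 3 (21 reads) and at 0.624, 0.324 and 0.191 FPKM in Cas9 (27, 13 and 8 reads), on both sides of the Ctrl value and under the minimum for the test. Ifnb1, encoding interferon-beta, had 1 read in Ctrl 3 and 0, 2 and 0 reads in the Cas9 libraries. The receptor and kinase genes examined, Ifngr1, Ifngr2 and Jak2, did not share the pattern either. Ifngr1, the ligand-binding chain of the interferon-gamma receptor, was at 39.6 FPKM against 43.6, 42.1 and 28.7 FPKM. Ifngr2, the second chain, was at 48.5 FPKM against 51.2, 48.4 and 42.1 FPKM, and Jak2, the kinase bound to it, at 45.5 FPKM against 39.5, 42.3 and 51.8 FPKM. For all of these the Ctrl value lay within the Cas9 range.

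The transcription factors came next. Stat2 was at 20.5 FPKM in Ctrl 3 and at 30.9, 30.4 and 27.9 FPKM in Cas9, with a log2 difference of 0.52 (SE 0.14). Irf7, which amplifies the type I interferon response, was at 49.5 FPKM against 68.4, 82.0 and 67.4 FPKM, and Irf9, the partner of STAT2, at 25.3 FPKM against 33.9, 32.5 and 31.1 FPKM. Ctrl 3 was below all Cas9 libraries for each. Irf1, an early target of interferon-gamma, was closer, at 74.6 FPKM against 86.1, 84.8 and 87.7 FPKM. Irf8, a factor of myeloid cells, was at 38.0 FPKM against 40.0, 36.5 and 29.1 FPKM, and Ciita, which switches on MHC class II, at 7 FPKM against 9.08, 10.2 and 5.72 FPKM. Both of these had Ctrl 3 within the Cas9 range, with Cas9 3 the lowest library.

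The immunity-related GTPases, which disrupt vacuoles around intracellular pathogens, were all higher in Cas9. Igtp was at 65.4 FPKM in Ctrl 3 and at 117, 116 and 141 FPKM in Cas9 (mean 125 ± 13.9 FPKM, SD, 3 libraries), with a log2 difference of 0.92 (SE 0.17). Irgm1 and Irgm2, regulators of the other members, were at 57.8 and 28.6 FPKM in Ctrl 3. In Cas9, Irgm1 was at 87.7, 86.0 and 99.5 FPKM and Irgm2 at 48.9, 45.4 and 56.2 FPKM. The effector Iigp1 was at 42.6 FPKM against 78.3, 71.4 and 99.8 FPKM. Tgtp1 was at 17.1 FPKM against 30.3, 27.1 and 40.9 FPKM, and Tgtp2 at 25.8 FPKM against 46.8, 42.2 and 44.1 FPKM (log2 difference 0.76, SE 0.14). Tgtp1 and Tgtp2 are near-identical copies, so their split is uncertain. Each of these 6 GTPase genes was higher in all Cas9 libraries than in Ctrl 3.

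The guanylate-binding proteins, larger GTPases of the same defence, were less even. Gbp2 was at 108 FPKM in Ctrl 3 and at 142, 163 and 258 FPKM in Cas9, and Gbp4 at 33.1 FPKM against 49.8, 61.2 and 76.5 FPKM, both highest in Cas9 3. Gbp7 was at 24.3 FPKM against 29.2, 29.3 and 31.2 FPKM, a smaller gap. Gbp2, Gbp3, Gbp4, Gbp5, Gbp6 and Gbp7 all had Ctrl 3 below the Cas9 values, with log2 differences from 0.29 for Gbp7 to 0.88 for Gbp4.

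The antiviral effectors of the interferon-stimulated list were on the same side. Usp18, a protease that removes ISG15 and damps the receptor, was at 15.8 FPKM in Ctrl 3 and at 25.9, 30.6 and 27.8 FPKM in Cas9 (log2 difference 0.79, SE 0.15). Isg15, the ubiquitin-like modifier, was at 53.7 FPKM against 75.6, 82.5 and 86.1 FPKM. Ifit1 and Ifit3, which bind foreign RNA, were at 8.91 and 6.04 FPKM in Ctrl 3. In Cas9, Ifit1 was at 20.8, 14.5 and 20 FPKM and Ifit3 at 12.6, 10.0 and 10.9 FPKM. Oas3, a sensor that makes the activator of RNase L, was at 4.11 FPKM against 7.22, 9.11 and 8.62 FPKM. Bst2, tetherin, which holds budding virus on the cell, was at 190 FPKM against 280, 294 and 323 FPKM. Rsad2 and Cmpk2, a neighbouring pair with antiviral roles, were above Ctrl 3 too but uneven: Rsad2 was at 2.30 FPKM against 9.23, 2.56 and 5.19 FPKM, and Cmpk2 at 4.14 FPKM against 13.1, 6.37 and 9.16 FPKM. Members that did not share the direction were Trim30a, at 19.6 FPKM against 25.1, 25.8 and 17.4 FPKM, and Herc6, at 8.86 FPKM against 10.6, 8.24 and 9.90 FPKM. The RNA sensor Ddx58 was at 11.5 FPKM in both Ctrl 3 and Cas9 3.

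The interferon-gamma list also holds secreted and surface proteins. Cxcl9 and Cxcl10, chemokines that draw T cells, were at 33.4 and 18.4 FPKM in Ctrl 3. In Cas9, Cxcl9 was at 52.0, 44.5 and 40.2 FPKM and Cxcl10 at 29.8, 20.5 and 25.3 FPKM. Cd274, the checkpoint ligand PD-L1, was at 8.69 FPKM against 11.2, 12.9 and 12.9 FPKM (log2 difference 0.46, SE 0.16). Ido1, a tryptophan-degrading enzyme, had the widest log2 difference of the interferon genes, 1.06, but it rested on Cas9 3: it was at 1.44 FPKM in Ctrl 3 and at 1.77, 2.55 and 12.3 FPKM in Cas9.

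**Figure D3:**
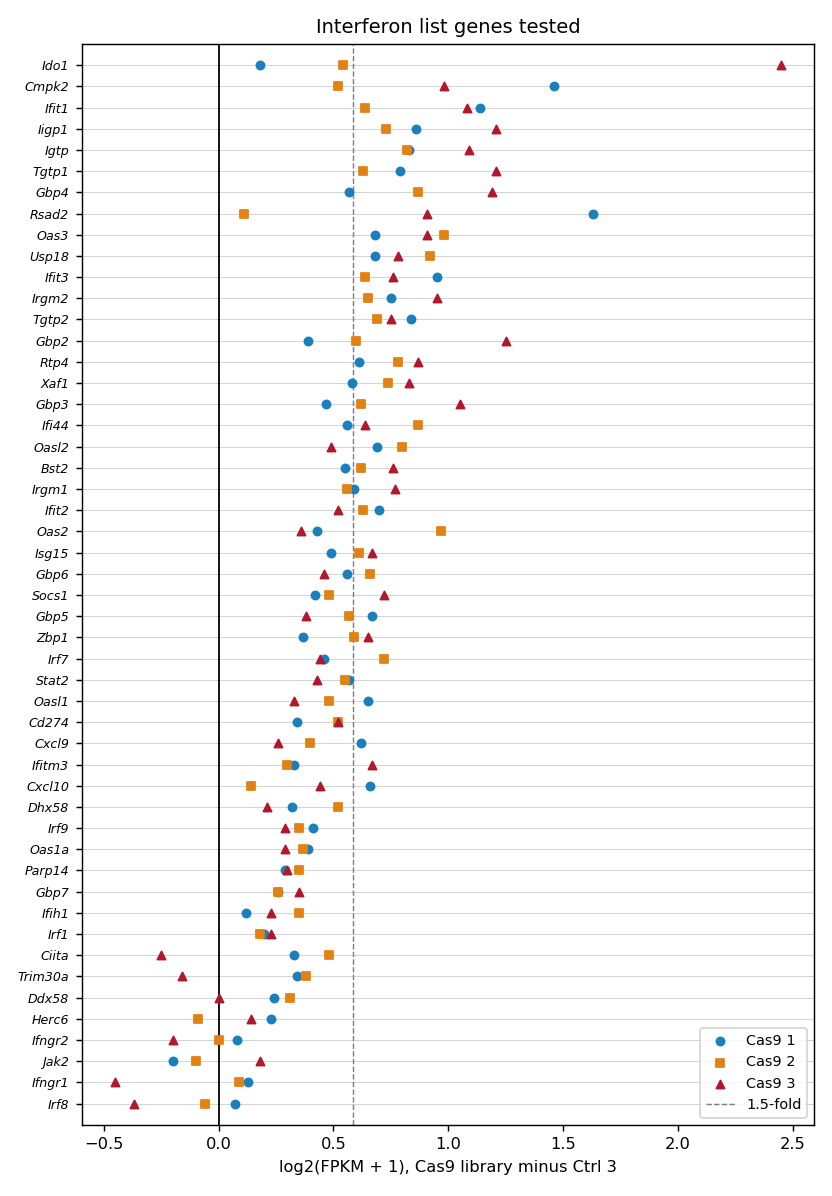
Difference in log2(FPKM + 1) of each Cas9 library from Ctrl 3 for 50 of the 51 interferon list genes tested, sorted by their mean, with a solid line at 0 and a dashed line at 1.5-fold. Of the 50 rows, 42 have all 3 points right of 0, among them Igtp, Usp18 and Isg15, while Jak2, Ifngr1 and Irf8 straddle it.

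Leukocyte markers are given beside these genes. Ptprc was at 21.1 FPKM in Ctrl 3 and at 18.5, 21 and 15.9 FPKM in Cas9. The macrophage sums are given above. Of 18 T cell genes in the files, 10 passed the minimum, some through the Cas9 libraries. Of these 10, 8 were higher and 0 lower in all 3 Cas9 libraries, beside 20.1% and 22.5% of all genes tested. With the untested members, 13 of the 18 were higher and 1 was lower. In the 6 WT and GSH libraries of 4T1 in the separate table, Igtp lay between 1.23 and 1.57 FPKM. The part of leukocytes in the interferon differences was not tested.

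MHC class I genes shared the direction at lower size. Of 22 tested, 0 passed the adjusted limma threshold, 19 were higher and 0 lower in all 3 Cas9 libraries, beside 20.1% and 22.5% of all genes, and 1 was at least 1.5-fold higher. Their median log2 difference was 0.29, beside -0.011 for all genes. H2-T23, encoding the non-classical molecule Qa-1 that NK receptors read, was at 184 FPKM in Ctrl 3 and at 297, 300 and 305 FPKM in Cas9 (mean 300 ± 3.89 FPKM, SD, 3 libraries), with a log2 difference of 0.70 (SE 0.13). The classical chains H2-K1 and H2-D1 were at 403 and 1041 FPKM in Ctrl 3. In Cas9, H2-K1 was at 500, 532 and 509 FPKM and H2-D1 at 1336, 1324 and 1203 FPKM. B2m, the shared light chain, was at 2386 FPKM against 2920, 3076 and 2907 FPKM. Class I heavy chains resemble each other closely, so reads may be split among them.

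The class I list also holds genes that make and load peptides. Tap1, a subunit of the peptide transporter, was at 59.8 FPKM against 78.8, 103 and 106 FPKM. The immunoproteasome subunits Psmb8 and Psmb9 were at 248 and 95.9 FPKM in Ctrl 3. In Cas9, Psmb8 was at 315, 341 and 304 FPKM and Psmb9 at 126, 137 and 136 FPKM. Psmb10, the other immunoproteasome subunit of the list, was closer, at 132 FPKM against 160, 145 and 140 FPKM, as was the loading factor Tapbp, at 192 FPKM against 210, 209 and 197 FPKM. The general chaperones of the endoplasmic reticulum were near Ctrl 3: Calr was at 485 FPKM against 497, 510 and 451 FPKM, Canx at 121 FPKM against 124, 125 and 119 FPKM, and Pdia3 at 284 FPKM against 292, 309 and 279 FPKM. MHC class II genes, made mainly by antigen-presenting cells, did not share the pattern. H2-Aa was at 483 FPKM against 513, 752 and 299 FPKM, and Cd74, the invariant chain, at 1893 FPKM against 2206, 2684 and 1067 FPKM. Of 12 tested, 0 were higher and 1 was lower in all 3 Cas9 libraries, beside 20.1% and 22.5% of all genes. In both genes Cas9 3 was the lowest library, as it was for the macrophage markers.

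Lymphocyte genes were low. Of 3 B and plasma cell genes tested, 1 was higher and 0 lower in all 3 Cas9 libraries. The shares over all genes tested were 20.1% and 22.5%. With the untested members, 3 of the 14 in the files were higher and 1 was lower. Cd3g, a chain of the T cell receptor complex, was at 4.49 FPKM in Ctrl 3 and at 9.35, 11 and 7.81 FPKM in Cas9. Cd8a, the coreceptor of cytotoxic T cells, was at 1.69 FPKM against 4.19, 4.62 and 2.66 FPKM. Cd4, the coreceptor of helper cells, which macrophages can also carry, was at 1.01 FPKM against 0.903, 0.904 and 0.166 FPKM, the other way. Pdcd1, the checkpoint receptor PD-1, was at 1.06 FPKM against 3.86, 4.34 and 3.14 FPKM (log2 difference 1.21, SE 0.22), and Klrd1, the CD94 chain that reads Qa-1, at 0.589 FPKM against 2.07, 2.28 and 2.14 FPKM. For Cd3g, Cd8a, Pdcd1 and Klrd1, Ctrl 3 lay below every Cas9 library. The 1.5-fold rule by which Cd3g, Pdcd1 and Klrd1 were named requires this order. Klrd1 passed the minimum through the Cas9 libraries. Thy1, which fibroblasts carry as well, was at 61.1 FPKM against 40.1, 67.4 and 46.0 FPKM and had Ctrl 3 within the Cas9 range. Differences on the log2(FPKM + 1) scale understate the fold at such low levels.

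Cytotoxic granule genes went in both directions. Gzma was at 1.85 FPKM in Ctrl 3 and at 7.84, 3.15 and 16.4 FPKM in Cas9, and Gzmb at 7.24 FPKM against 21.2, 8.08 and 15.3 FPKM, both uneven. Prf1, the pore-forming perforin, was at 4.63 FPKM against 5.71, 1.18 and 3.06 FPKM, with Ctrl 3 inside the Cas9 range. Of 11 genes of NK cells and granules tested, 6 were higher and 1, Gzmc, was lower in all 3 Cas9 libraries. The shares over all genes tested were 20.1% and 22.5%. With the untested members, 7 of the 14 in the files were higher and 2, Gzmc and Ncr1, were lower. Ccl22, a chemokine of dendritic cells and macrophages that draws regulatory T cells, was lower, at 4.65 FPKM against 2.18, 1.70 and 1.91 FPKM (log2 difference -0.95, SE 0.20).

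Some muscle transcripts also differed. Mb, myoglobin, was at 0.826 FPKM in Ctrl 3 and at 7.04, 4.42 and 3.19 FPKM in Cas9, and Mylpf, a fast muscle myosin light chain, at 0.695 FPKM against 4.47, 1.87 and 2.04 FPKM. Acta1, skeletal actin, was uneven, at 0.195 FPKM against 11.9, 6.95 and 0.147 FPKM. Tnni2, the most abundant member of the list, went the other way, at 15.0 FPKM against 12.9, 14.1 and 10.4 FPKM. Tnnt3 was at 4.76 FPKM against 4.98, 6.3 and 3.09 FPKM, with Ctrl 3 within the Cas9 range. Of 7 muscle genes tested, 3 were higher and 1 lower in all 3 Cas9 libraries, beside 20.1% and 22.5% of all genes tested. With the untested members, 7 of the 16 in the files were higher and 1 was lower. Mb and Mylpf were below 1 FPKM in Ctrl 3 and passed the minimum through the Cas9 libraries. Which cells the muscle and adipocyte transcripts came from was not tested.

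Hypoxia-induced genes divided by library. Of 27 tested, 3 were at least 1.5-fold higher and 12 were higher by any amount in all 3 Cas9 libraries, beside 0.482% and 20.1% of all genes. The list had per-library medians of 0.06 in Cas9 1, 0.42 in Cas9 2 and 0.56 in Cas9 3. Ankrd37, a direct target of the hypoxia factor HIF1, was at 2.06 FPKM against 4.67, 5.34 and 7.23 FPKM. Adm, given above, was past 1.5-fold as well. The glucose transporter Slc2a1 was at 48.5 FPKM in Ctrl 3 and at 48.4, 97.7 and 132 FPKM in Cas9, and Ndrg1 was at 116 FPKM against 114, 246 and 300 FPKM. Both were level between Ctrl 3 and Cas9 1. Pgf, placental growth factor, an angiogenic ligand, was at 8.32 FPKM against 14.1, 15.9 and 14.0 FPKM (log2 difference 0.75, SE 0.15).

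Cytosolic ribosomal protein genes were slightly and broadly higher, with 52 of 58 higher and 1 lower in all 3 Cas9 libraries, beside 20.1% and 22.5% of all genes, and a median log2 difference of 0.27. Their sum was 48840 FPKM in Ctrl 3 and 60252, 54313 and 62020 FPKM in Cas9, and none of the 58 was 1.5-fold higher in all 3. Reads of ribosomal protein genes are shared with their many pseudogenes. The median over all genes tested was -0.011.

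Redox genes differed little as lists. The 33 genes of glutathione synthesis and use tested had a median log2 difference of 0.17, with 14 higher and 3 lower in all 3 Cas9 libraries, beside 20.1% and 22.5% of all genes, and 0 past 1.5-fold in all 3. Slc7a11, the cystine importer that feeds glutathione synthesis, had the widest difference of the list: it was at 2.62 FPKM in Ctrl 3 and at 7.88, 7.52 and 3.96 FPKM in Cas9 (log2 difference 0.99, SE 0.38). Its partner chain Slc3a2 was at 13.7 FPKM against 18.1, 17.8 and 18.1 FPKM. Gclm, the modifier subunit of the first enzyme of the pathway, was at 10.3 FPKM against 14.4, 13.4 and 18.4 FPKM, and Gclc, its catalytic subunit, at 6.28 FPKM against 8.27, 6.51 and 7.27 FPKM. Gpx4, the peroxidase that guards against ferroptosis, was at 291 FPKM against 362, 279 and 363 FPKM. The lists of NRF2 targets (median 0.06 over 30 genes), ferroptosis (0.03 over 20) and p53 targets (0.02 over 28) lay close to the all-gene median.

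Several programmes differed more between Cas9 libraries than from Ctrl 3. The G2/M cell cycle list, 46 genes, had medians of -0.69 in Cas9 1, 0.06 in Cas9 2 and 0.25 in Cas9 3. Top2a, the mitotic topoisomerase, was at 64.8 FPKM in Ctrl 3 and at 36.1, 63.9 and 78.6 FPKM in Cas9. Cholesterol synthesis had medians of -0.95, -0.19 and 0.16, with Hmgcs1, an early enzyme of the pathway, at 25.6 FPKM against 10.2, 18.3 and 25.2 FPKM. The extracellular matrix list had medians of -0.74, 0.28 and -0.71, and Col1a1, the main fibrillar collagen chain, was at 326 FPKM against 147, 533 and 159 FPKM. DNA double-strand break repair, 30 genes, had a median of 0.01 over the 3 libraries. In the G2/M and matrix lists the libraries lay on both sides of Ctrl 3, and Cas9 1 was the lowest library for G2/M and for cholesterol synthesis.

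**Figure D4:**
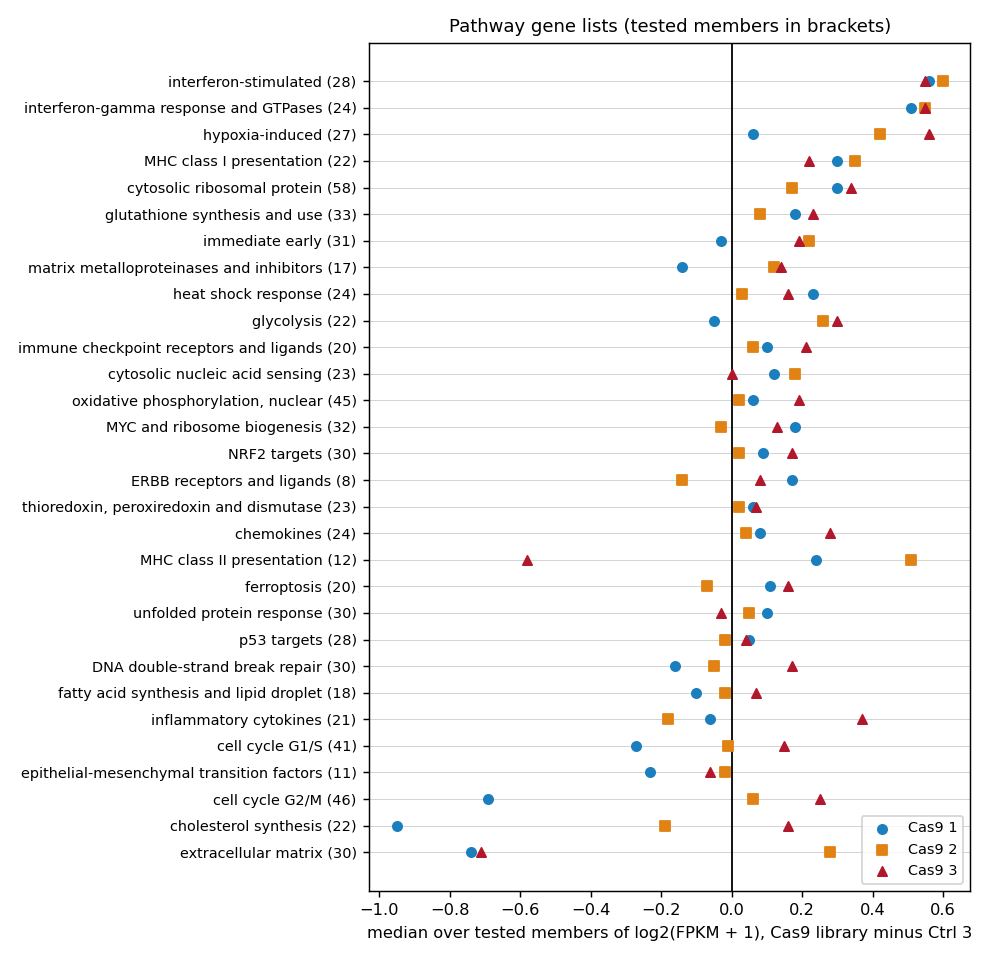
Median log2(FPKM + 1) difference of each Cas9 library from Ctrl 3 over the tested members of 30 pathway lists, with the number tested in brackets and 0 as the Ctrl 3 level. The 2 interferon lists have their 3 points together at 0.51 to 0.60, whereas G2/M, cholesterol synthesis and extracellular matrix lie on both sides of 0.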

How the data were processed

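RNA sequencing values of 1 Ctrl and 3 Cas9 libraries were analysed, grouped by sample title. No label or header names the unit. What the authors deposited was read as FPKM because the numbers step in whole reads scaled by gene length and library total. Per the submitters' processing notes, HTSeq (0.6.0), HISAT2 (2), Bowtie2 (2.2.3) and the build mm8 were involved, without roles. No coordinates were therefore taken from the files, and the promoter windows are from RefSeq on GRCm38.p6, where 7 of the 11 interferon genes at least 1.5-fold higher had a match.

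Whole reads were recovered for 99.98% of symbols above 0, within 0.15 read, which gave the depth: 37334599 reads in Ctrl 3 and 34002254, 31555573 and 33114933 in Cas9 1 to 3. Genes with a mean of 1 FPKM or more were tested with limma 3.58.1 (R 4.3.3; trend, two-sided) on log2(FPKM + 1), with Benjamini-Hochberg adjustment at 0.05. Fold changes are on that scale. The script was tested on simulated data.

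The members and the 45 gene lists were chosen with earlier results of these data known. Of 1095 list entries, 1080 were found in the files, 8 of them under another symbol. The rule for named genes took those past the threshold, the 12 highest and 12 lowest in Cas9 by the smallest of the 3 differences (mean of 5 FPKM or more, leaving out predicted genes, pseudogenes and small RNAs), and per list the 4 most abundant members and up to 4 past 1.5-fold. Other list members were named after their values were seen, to show a role or an exception. Alternatives were a pseudocount of 0.1, relative log expression scaling, other minimums, no trend, voom on recovered reads, and each Cas9 library left out. Some genes are not reported here.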

Additional observations from a re-analysis of the deposited data

How the results depend on the processing

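The count of genes past the adjusted limma threshold was 0 in all 9 alternatives, with 161 to 552 genes at an unadjusted p of 0.05 and a smallest adjusted p of 0.517. With a pseudocount of 0.1, 109 genes in place of 55 were at least 1.5-fold higher in all Cas9 libraries and 28 in place of 17 lower, and the interferon-gamma list median was 0.60 in place of 0.55. Leaving out each Cas9 library in turn gave 103 to 131 higher and 33 to 86 lower genes, since fewer libraries have to pass. It gave medians of 0.54 to 0.60 for the interferon-stimulated list and 0.5 to 0.58 for the interferon-gamma list. Of 225 list medians under alternatives, 12 moved by more than 1 SD, and of 207 named genes 47 changed sign under at least 1 alternative. No paired analysis was possible because the groups share only replicate number 3. The Ctrl library cannot be left out, so whether Ctrl 3 is typical of its group was not tested, and Cas9 genotype and the tissue content of Ctrl 3 cannot be told apart.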
